A study of Mus musculus with 6 samples.

Results

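The Sprouty, Spred and Errfi1 genes encode intracellular inhibitors of signalling from receptor tyrosine kinases (RTKs) to Ras and the extracellular signal-regulated kinase (ERK). The 7 genes described here, Spry1, Spry2, Spry4, Spred1, Spred2, Spred3 and Errfi1, were taken by gene symbol, with earlier results of these data known. Each was found once in all 6 libraries. They are 7 of 25001 loci in the deposited tables, of which 22601 carried a symbol. With PMA, the Errfi1 transcript was 1.74 higher on the log2 scale in 427 cells and 1.43 higher in the library pair labelled SP2bKD. Spry1, Spry2 and Spred1 were also higher with PMA in both lines, Spred2 lay close to 0 and Spred3 was lower. With the epithin/PRSS14 intracellular domain (EICD), Errfi1 and Spred3 were the members with the largest ratios among those at 1 FPKM or more.

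Sprouty and Spred proteins share a cysteine-rich C-terminal Sprouty domain that brings them to membranes. Sprouty proteins are phosphorylated after growth factor stimulation and act between the receptor and Raf, while Spred proteins recruit the Ras GTPase-activating protein neurofibromin to the membrane. Errfi1, also called Mig6, binds the kinase domain of the epidermal growth factor (EGF) receptor family and blocks it. Several of these genes are transcribed in response to the pathway that their products inhibit, which makes them negative feedback regulators, and in epithelia they limit the response to EGF and fibroblast growth factors. Phorbol 12-myristate 13-acetate (PMA) activates protein kinase C, which feeds into Raf and ERK below the receptors.

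RNA-seq was performed on 427.1.86 mouse thymoma cells (427 cells) in 6 conditions with 1 library each, so no difference below has a replicate check and no test was made. Wild type 427 cells that stably carried the empty pSUPER vector were kept without serum for 2 h and then given DMSO or 1 µM PMA for 2 h. The cells labelled as SPPL2b knockdown (SP2bKD), 427 cells with an interfering RNA against the intramembrane protease SPPL2b, received the same 2 treatments. According to the methods of the study the knockdown lines were single-cell clones, and the clone used for transfection was SP2bKD-10. SP2bKD-10 cells were transfected with GFP alone or with GFP and FLAG-tagged EICD, and GFP-positive cells were sorted by flow cytometry. All cells were at passage 4 to 10 and grown in medium with 10% serum. Epithin/PRSS14, encoded by St14, is a transmembrane serine protease whose ectodomain is shed with PMA.

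By FPKM, the targeted transcript went against the knockdown labels. The study tested SPPL2b mRNA of its knockdown clones by real-time PCR and reported less EICD after PMA in them. Those measurements are not part of the data described here. Sppl2b was at 9.90 and 6.86 FPKM (fragments per kilobase of transcript, scaled to the fragments sequenced) in 427 cells with DMSO and PMA, at 13.4 and 9.37 FPKM in the libraries labelled SP2bKD, and at 11.4 and 13.2 FPKM with GFP and GFP plus EICD. The libraries labelled SP2bKD were therefore 0.44 higher with DMSO and 0.45 higher with PMA on the log2 scale, and every line difference below is between libraries as labelled. St14 was at 614.5 FPKM with EICD and at 69.7 FPKM with GFP alone, but the construct shares sequence with the gene. All 8 epithelial markers examined, among them Krt8 and Epcam, reached 1 FPKM in every library. None of 8 T cell markers and none of 6 fibroblast markers did, with Cd3e, Cd4, Thy1 and Lum at 0. Of 6 thymic epithelial markers, Foxn1 and Ly75 reached 1 FPKM and Aire was at 0, and of 6 myeloid markers Cd68, Csf1r and Cd14 did. Depth was estimated from the steps of the FPKM values at 25600000 to 30700000 fragments per library.

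The promoters of the genes are shown first, because Errfi1, Spry2, Spry1 and Spred1 were more than 1.5-fold higher with PMA in at least 1 line. RefSeq start sites of GRCm38.p6 gave a window for 6 of the 7 genes. Each sequence below is the 250 bases before the start site, 5′ to 3′ on the strand of the gene. Capitals mark motif matches. The Errfi1 window ends before the downstream of 2 start sites (chr4:150854820-150855069, plus strand). The others are Spry2 (chr14:105896820-105897069, minus strand), Spry1 (chr3:37639697-37639946, plus strand), Spred1 (chr2:117120821-117121070, plus strand) and, for contrast, Spred2 (chr11:19924192-19924441, plus strand), whose transcript changed little with PMA. The windows of Spry2, Spred2 and Spred3 and the downstream Errfi1 window lie inside the measured loci. The 5′ ends of those loci are further upstream, so these windows are not the sequence before them.
Errfi1: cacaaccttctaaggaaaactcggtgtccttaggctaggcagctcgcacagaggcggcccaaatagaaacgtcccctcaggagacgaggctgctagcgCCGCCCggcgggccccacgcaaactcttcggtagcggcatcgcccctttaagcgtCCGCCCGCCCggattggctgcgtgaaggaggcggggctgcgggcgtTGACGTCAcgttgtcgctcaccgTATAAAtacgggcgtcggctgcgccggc
Spry2: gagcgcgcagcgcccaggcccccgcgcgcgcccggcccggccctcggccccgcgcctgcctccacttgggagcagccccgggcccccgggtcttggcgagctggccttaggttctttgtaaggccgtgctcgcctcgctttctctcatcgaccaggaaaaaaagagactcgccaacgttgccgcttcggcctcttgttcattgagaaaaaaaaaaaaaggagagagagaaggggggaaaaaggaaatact
Spry1: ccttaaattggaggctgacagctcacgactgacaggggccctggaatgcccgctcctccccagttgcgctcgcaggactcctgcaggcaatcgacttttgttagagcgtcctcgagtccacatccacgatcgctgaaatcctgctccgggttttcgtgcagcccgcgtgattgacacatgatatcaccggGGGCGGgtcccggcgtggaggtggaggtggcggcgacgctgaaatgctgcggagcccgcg
Spred1: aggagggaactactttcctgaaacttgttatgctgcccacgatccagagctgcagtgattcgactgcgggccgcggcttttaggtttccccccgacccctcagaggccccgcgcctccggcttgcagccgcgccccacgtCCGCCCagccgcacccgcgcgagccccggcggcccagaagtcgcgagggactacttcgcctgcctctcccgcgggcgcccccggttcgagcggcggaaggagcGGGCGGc
Spred2: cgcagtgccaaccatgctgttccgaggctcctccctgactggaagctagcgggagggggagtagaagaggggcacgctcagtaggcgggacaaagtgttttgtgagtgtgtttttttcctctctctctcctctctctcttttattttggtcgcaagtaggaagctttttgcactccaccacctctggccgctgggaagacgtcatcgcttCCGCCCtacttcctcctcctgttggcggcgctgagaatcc

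Both strands were searched for the letters of 7 motifs. These were the cAMP response element, TGACGTCA, the AP-1 site, TGANTCA, the ETS site with its letters CCGGAAG, the Egr site with GCGNGGGCG, the GC box of Sp1 with GGGCGG, the TATA box with TATAAA, and the CArG box, bound by serum response factor. The downstream Errfi1 window held a cAMP response element 51 to 44 bases before the start, a TATA box 28 to 23 bases before it and 3 GC boxes, of which a pair overlap each other. A cAMP response element was in 1.55% and a TATA box in 12.4% of all 32851 windows. The GC box was in 32.7% of all windows, and was found in the windows of Spry1, Spred1, Spred2 and Spred3. The Spry2 window and the upstream Errfi1 window held none of these letters. AP-1, ETS, Egr and CArG letters, in 6.75%, 6.91%, 4.7% and 1.47% of all windows, were found in none of the 7 windows of these genes. The Egr letters can overlap a GC box. These are matches of letters and not measured sites.

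The levels of the 7 genes spanned a wide range within a library. FPKM is per kilobase of transcript and allows levels of different genes to be compared. In 427 cells with DMSO, the order was Spred2 (20.4 FPKM), Spred1 (18.6 FPKM), Errfi1 (17.9 FPKM), Spry1 (10.8 FPKM), Spry2 (4.93 FPKM), Spred3 (2.04 FPKM) and Spry4 (0.0457 FPKM). With PMA in the same cells Errfi1 led at 59.9 FPKM, followed by Spred1 at 28.6 FPKM and Spred2 at 21.3 FPKM. Errfi1 thus made up 24% of the summed FPKM of the 7 genes with DMSO and 44% with PMA, against 24.8% and 37.9% in the libraries labelled SP2bKD. The plot of FPKM by library shows these levels.

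**Figure D1:**
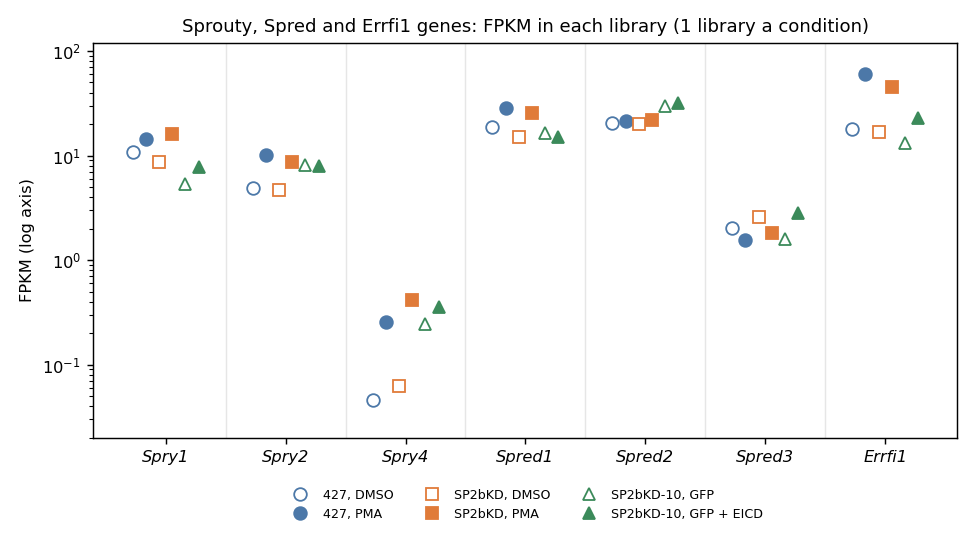
FPKM (log axis) of the 7 genes in each of the 6 libraries, 1 point per library with no replicates. Errfi1 has its highest values in the PMA libraries, at 59.9 and 45.5 FPKM, Spred2 stays between 20.1 and 31.5 FPKM, and Spry4 stays below 1 FPKM in all 6.

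Errfi1 (ENSMUSG00000028967, GRCm38 chromosome 4, 150853919 to 150868892, plus strand, 4 exons) binds and inhibits EGF receptor kinases. Its level was 17.9 FPKM with DMSO and 59.9 FPKM with PMA in 427 cells, 16.9 and 45.5 FPKM in the libraries labelled SP2bKD, and 13.1 FPKM with GFP and 22.8 FPKM with GFP plus EICD. Both PMA libraries were above the other 4, and the GFP library was lowest. The log2 ratio of PMA over DMSO was 1.74 in 427 cells, with a 95% counting interval of 1.66 to 1.82, and 1.43 (1.34 to 1.52) in the libraries labelled SP2bKD. These exact binomial intervals use fragments estimated from FPKM and cover counting error only, not the spread between cultures. By log2 ratio Errfi1 was at place 161 of 10643 loci in 427 cells and at place 205 of 10624 in the libraries labelled SP2bKD.

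Spry2 (ENSMUSG00000022114.L01, chromosome 14, 105891949 to 105897739, minus strand, 2 exons) is a Sprouty protein that binds the ubiquitin ligase Cbl. It was at 4.93 FPKM with DMSO and 10.2 FPKM with PMA in 427 cells, at 4.67 and 8.64 FPKM in the libraries labelled SP2bKD, and at 8.15 and 8.01 FPKM with GFP and GFP plus EICD. The 2 DMSO libraries were low, and both sorted libraries were near the PMA level of the SP2bKD cells. The PMA log2 ratio was 1.04 (0.84 to 1.25) in 427 cells and 0.89 (0.67 to 1.11) in the libraries labelled SP2bKD. In 427 cells 96.3% of the loci had a lower ratio.

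Spry1 (ENSMUSG00000037211.L01, chromosome 3, 37639947 to 37644657, plus strand, 2 exons) is best known for restraining RET signalling in the developing kidney. It was at 10.8 and 14.4 FPKM with DMSO and PMA in 427 cells, at 8.72 and 16.0 FPKM in the libraries labelled SP2bKD, and at 5.39 and 7.83 FPKM with GFP and GFP plus EICD. Both PMA libraries were highest and both sorted libraries lowest. The PMA log2 ratio was 0.41 (0.29 to 0.54) in 427 cells and 0.88 (0.74 to 1.02) in the libraries labelled SP2bKD. Spry1 shares 710 exon bases with Gm42922 on the opposite strand, and the library kit named in the labels does not mark strand, so reads of the pair cannot be told apart.

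Spry4 (ENSMUSG00000024427, chromosome 18, 38586268 to 38601268, minus strand, 2 exons), which inhibits Ras activation downstream of growth factor receptors, never reached 1 FPKM. Its level was 0.0457 and 0.257 FPKM with DMSO and PMA in 427 cells, 0.0624 and 0.410 FPKM in the libraries labelled SP2bKD, and 0.243 and 0.357 FPKM with GFP and GFP plus EICD. These values correspond to about 6, 36, 8, 60, 30 and 45 fragments, so the DMSO libraries are low but poorly counted. The PMA log2 ratios were 2.26 (1.28 to 4.07) and 2.54 (1.57 to 3.92), and they were 0.27 and 0.41 when 1 FPKM was added to both libraries in place of 0.01. Spry4 is therefore left out of the counts of members past a threshold, except where no minimum FPKM was set.

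Spred1 (ENSMUSG00000027351, chromosome 2, 117121374 to 117182279, plus strand, 7 exons), the neurofibromin-binding protein mutated in Legius syndrome, was at 18.6 and 28.6 FPKM with DMSO and PMA in 427 cells. It was at 14.99 and 25.7 FPKM in the libraries labelled SP2bKD, and at 16.5 and 15.1 FPKM with GFP and GFP plus EICD. Only the 2 PMA libraries exceeded 20 FPKM among the 6. The PMA log2 ratio was 0.62 (0.56 to 0.68) in 427 cells and 0.78 (0.71 to 0.85) in the libraries labelled SP2bKD.

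Spred2 (ENSMUSG00000045671.L01, chromosome 11, 19924090 to 20024026, plus strand, 7 exons), also an inhibitor of Ras to ERK signalling, was the most even member. It was at 20.4 and 21.3 FPKM with DMSO and PMA in 427 cells, at 20.1 and 22.0 FPKM in the libraries labelled SP2bKD, and at 29.5 and 31.5 FPKM in the sorted libraries. Its highest value was 1.57 times its lowest, and the sorted libraries were the high ones. The PMA log2 ratio was 0.06 (−0.02 to 0.14) in 427 cells and 0.13 (0.05 to 0.21) in the libraries labelled SP2bKD.

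Spred3 (ENSMUSG00000037239.L01, chromosome 7, 29158829 to 29170411, minus strand, 6 exons) is a family member that lacks a functional KIT-binding domain. It was at 2.04 and 1.56 FPKM with DMSO and PMA in 427 cells, at 2.60 and 1.80 FPKM in the libraries labelled SP2bKD, and at 1.58 and 2.79 FPKM with GFP and GFP plus EICD. It was the only one of the 7 with a lower value with PMA in each line. The PMA log2 ratio was −0.39 (−0.67 to −0.11) in 427 cells and −0.53 (−0.80 to −0.27) in the libraries labelled SP2bKD. The locus shares 202 exon bases with Ggn on the opposite strand, none of them in its longest transcript.

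Of the 6 members with 1 FPKM or more, 2 were more than 2-fold higher with PMA in 427 cells, Spry2 and Errfi1, where 3.91% of 10643 loci were. Only Errfi1 of the 6 was in the libraries labelled SP2bKD, where 3.51% of 10624 loci were. Spry2 missed that threshold in this line with a log2 ratio of 0.89. At 1.5-fold the count was 3 in 427 cells, with Spred1 added, beside 8.1% of loci. For the libraries labelled SP2bKD it was 4, Spry1, Spry2, Spred1 and Errfi1, beside 7.89% of loci. The median log2 ratio of these 6 members was 0.52 in 427 cells, while that of all loci with 1 FPKM or more was −0.12. The same medians were 0.83 and −0.15 in the libraries labelled SP2bKD. With Spry4 included, the medians of the 7 genes were 0.62 and 0.88. Of the 6, 5 had a ratio above 0 in each line, Spred3 being the exception, where 37.2% and 35.6% of loci did. The plot of the log2 ratios by comparison shows every member.

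**Figure D2:**
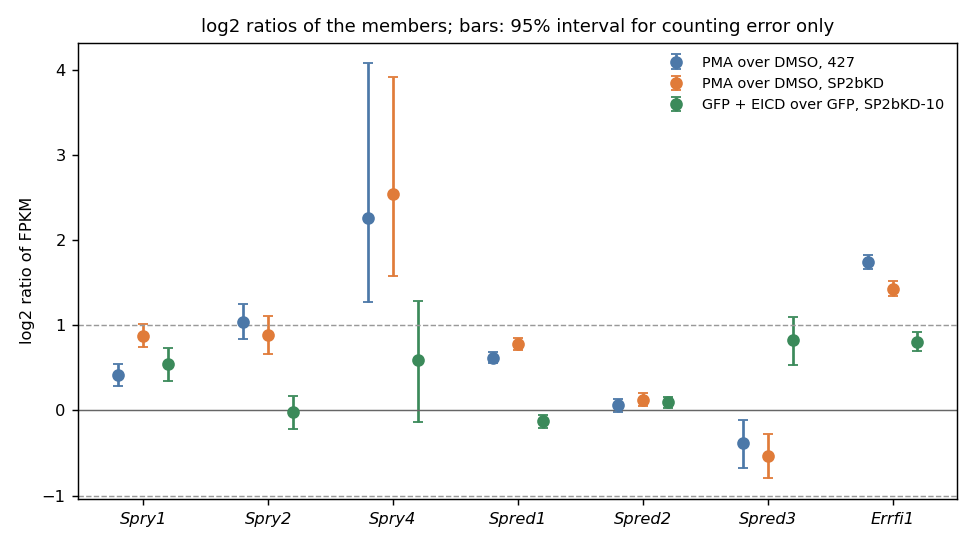
Log2 ratios of FPKM for the 7 genes with PMA over DMSO in each line (blue, 427 cells, and orange, SP2bKD) and with EICD over GFP (green), with dashed lines at 2-fold and bars for the 95% counting interval, which holds no replicate error. Errfi1 lies at 1.74 and 1.43 with PMA and at 0.81 with EICD, and the wide bars belong to Spry4, which has few fragments.

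The second question was whether the response to PMA differed between the lines, since the libraries labelled SP2bKD served the study as cells with impaired formation of EICD after shedding. None of the 6 members had PMA log2 ratios that differed by more than 1 between the lines, where 3.27% of 10845 loci did. The PMA log2 ratio of Errfi1 was 0.31 (0.19 to 0.43) higher in 427 cells, and that of Spry1 was 0.46 lower there, a difference of −0.46 (−0.65 to −0.28). For Spred1 the difference was −0.16 (−0.26 to −0.06). The intervals of Spry2, Spry4, Spred2 and Spred3 held 0. Over the 10845 loci the 5th to 95th percentile of this difference was −0.50 to 0.60, and all 6 members lay within it. All 7 had the same sign in both lines, but the interval of the Spred2 ratio in 427 cells held 0. The signs were opposite for 18.5% of the 10845 loci, which leave out Spry4. At that share 7 genes would hold few opposite signs or none.

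**Figure D3:**
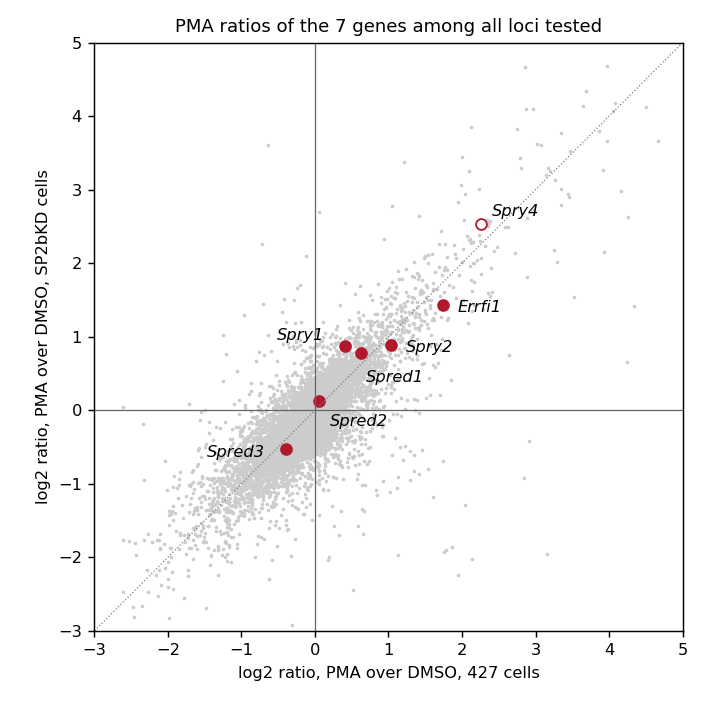
Log2 ratio of PMA over DMSO in 427 cells (horizontal) against the libraries labelled SP2bKD (vertical), with grey points for 10422 loci, of which 29 lie outside the axes, and red points for the 7 genes (open for Spry4, under 1 FPKM). Spry1 lies above the dotted line of equal ratios at 0.41 and 0.88, Errfi1 lies below it at 1.74 and 1.43, and Spred3 is the only one of the 7 below 0 on both axes.

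The lines were also compared at the same treatment. With DMSO none of the 6 members differed by more than 2-fold between libraries labelled SP2bKD and 427 cells, where 5.87% of 10706 loci did, and with PMA none did where 4.93% of 10518 loci did. The log2 ratio of SP2bKD over 427 cells with DMSO was −0.31 (−0.46 to −0.16) for Spry1, −0.31 (−0.39 to −0.24) for Spred1 and 0.35 (0.09 to 0.61) for Spred3. With PMA it was −0.40 (−0.45 to −0.34) for Errfi1, −0.23 (−0.40 to −0.07) for Spry2, −0.15 (−0.21 to −0.10) for Spred1, 0.16 (0.04 to 0.27) for Spry1 and, from few fragments, 0.65 (0.06 to 1.32) for Spry4. The intervals of the line difference held 0 for Spry2, Spry4, Spred2 and Errfi1 with DMSO. The 5th to 95th percentile over all loci tested was −0.69 to 0.77 with DMSO and −0.67 to 0.66 with PMA. All 6 members lay within these ranges. The line comparisons use the same 4 libraries as the PMA comparisons and are not independent of them. Clone, selection and the interfering RNA cannot be told apart in these line differences.

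The third comparison asked what EICD alone did in the sorted cells. Errfi1 was 0.81 (0.70 to 0.92) higher on the log2 scale with EICD, from 13.1 to 22.8 FPKM. Spred3 was 0.82 (0.54 to 1.10) higher, from 1.58 to 2.79 FPKM, and Spry1 was 0.54 (0.35 to 0.73) higher, from 5.39 to 7.83 FPKM. Spry2 lay at −0.02 (−0.22 to 0.17) and Spred2 at 0.09 (0.03 to 0.16). Spred1 lay at −0.13 (−0.21 to −0.05), and Spry4 at 0.59 (−0.13 to 1.29) with few fragments. Spred3 thus had a positive log2 ratio with EICD and negative ones with PMA, and Spry2 a ratio near 0 with EICD and near 1 with PMA.

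None of the 6 members was more than 2-fold higher with EICD, where 3.58% of 10682 loci were. At 1.5-fold 2 were, Errfi1 and Spred3, beside 10.5% of loci. The median log2 ratio was 0.32 over these 6 members and 0.07 over all loci with 1 FPKM or more, and 0.54 over the 7 genes with Spry4. By this ratio 94.4% of loci lay below Errfi1 and 94.6% below Spred3.

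The order of the 6 libraries differed between the members. For Errfi1 the 2 PMA libraries came first, and only the 2 DMSO libraries were neighbours whose counting interval held 0. For Spry2 the PMA library labelled SP2bKD, the GFP library and the EICD library were neighbours not set apart by counting error, and the 2 DMSO libraries lay below them. For Spred2 the 4 unsorted libraries were not set apart by counting error, each from its neighbour. For Spred3 the EICD library and the DMSO library labelled SP2bKD came first and were not set apart, and the GFP library and 427 cells with PMA came last. For Spry4 neighbours among the 4 highest libraries were not set apart, and the GFP library, lowest of the 4, was set apart from the DMSO library labelled SP2bKD. The summed FPKM of the Sprouty genes was 15.8, 24.8, 13.4, 25.1, 13.8 and 16.2 in 427 cells with DMSO and PMA, the same in SP2bKD, and with GFP and GFP plus EICD. That of the Spred genes was 41.1, 51.5, 37.7, 49.5, 47.6 and 49.4 FPKM in the same order.

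The 2 sorted libraries differ from the 4 others in transfection, sorting and the stated serum deprivation, which cannot be told apart. The labels do not say whether the unsorted SP2bKD libraries came from the SP2bKD-10 clone, so a difference of clone cannot be told apart either. Fos, an immediate early gene picked after its values were seen, was at 148.4 and 244.0 FPKM in the sorted libraries and between 0.82 and 5.93 FPKM in the others. Spred2 was higher in the 2 sorted libraries than in the 4 others, and Spry2 was higher there than with DMSO only. Whether the difference in Fos had a part in these levels was not tested. In bulk libraries, fewer cells with a transcript and less transcript per cell cannot be told apart.

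The loci whose profiles over the 6 libraries were most like those of the members were found by the root mean square difference of centred log2 FPKM among 11062 loci. For Errfi1 they were Sgms2 (0.0947), Antxr2 (0.133) and Abtb2 (0.136). For Spry2 they were Pxdc1 (0.0373), Camk2d (0.062) and Mapkapk3 (0.0744). For Spred1 they were Homer1 (0.0604), Fam126b (0.0691) and Eaf1 (0.0744), and for Spred2 Inpp5f (0.0501), Stat6 (0.0594) and Bcap29 (0.0632). For Spry1 Apobr (0.0516) and Zbtb46 (0.13) were closest, and for Spred3 Decr2 (0.0772), Lzts2 (0.0778) and Ybey (0.0814). Among the members themselves Spry1 and Spred1 were the closest pair, at 0.306.

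The other genes of the pathway are described from 7 lists by the role of their products. Beside the counts below, 3.91% of 10643 loci were more than 2-fold higher with PMA in 427 cells. The shares were 3.51% of 10624 in the libraries labelled SP2bKD and 3.58% of 10682 with EICD. Loci more than 2-fold lower numbered 497, 605 and 54 in the same order. The EGF receptor ligands had the highest median log2 ratio with PMA. All 6 of these 7 genes with 1 FPKM or more were over 2-fold higher in 427 cells, with a median of 2.30. All 5 were in the libraries labelled SP2bKD, with a median of 2.17. Some of these genes reached 1 FPKM only with PMA, so a higher PMA value was partly set by the filter. Among them were Ereg, at 0.469 FPKM with DMSO in 427 cells, and Areg and Ereg, at 0.929 and 0.233 FPKM with DMSO in the libraries labelled SP2bKD. Areg, which encodes amphiregulin, was at 3.42 and 57.7 FPKM with DMSO and PMA in 427 cells and at 0.929 and 16.9 FPKM in the libraries labelled SP2bKD. It was at 10.5 FPKM with GFP and 27.1 FPKM with EICD, a log2 ratio of 1.37, and was the 1 ligand over 2-fold higher of 5.

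Among 16 other feedback inhibitors of RTK and ERK signalling, 13 had 1 FPKM or more, and 3 of them were over 2-fold higher with PMA in 427 cells, the ERK phosphatases Dusp4, Dusp5 and Dusp6. In the libraries labelled SP2bKD 4 were, with Socs5 added. Dusp6, the cytoplasmic ERK phosphatase, went from 11.1 to 112.3 FPKM and from 5.98 to 82.0 FPKM, log2 ratios of 3.34 and 3.78, both above those of Errfi1. Its level was 50.6 FPKM with GFP and 43.6 FPKM with EICD. Dusp4 had log2 ratios of 2.00 and 2.01 with PMA, and Dusp5 had 2.26 and 1.85. With EICD, Dusp5 was the 1 of 12 over 2-fold higher, at 16.3 and 34.5 FPKM with a log2 ratio of 1.09. The median of this list was 0.28 in 427 cells, −0.09 in the libraries labelled SP2bKD and 0.32 with EICD. Spry3 stayed between 0.125 and 0.620 FPKM.

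Of 18 transcripts known to depend on ERK, 16 had 1 FPKM or more and 11 of these were over 2-fold higher with PMA in 427 cells, with a median log2 ratio of 2.02. In the libraries labelled SP2bKD 13 of 16 were, with a median of 1.87. Of the DMSO and PMA libraries, Egr3 in both lines and Fos in those labelled SP2bKD reached 1 FPKM only with PMA. With DMSO Egr3 was at 0.349 and 0.101 FPKM in the 2 lines, and Fos at 0.823 FPKM in the libraries labelled SP2bKD. Fosl1, an AP-1 subunit, went from 4.71 to 73.8 FPKM and from 1.92 to 49.5 FPKM, log2 ratios of 3.97 and 4.68. This list also holds Dusp4, Dusp5 and Dusp6, and it shares Phlda1 with the list of Sprouty and Spred partners. With EICD 3 of 17 were over 2-fold higher, with a median of 0.47.

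The receptors, adaptors and kinases of the pathway were the remaining lists. None of 18 genes of the Ras to ERK cascade with 1 FPKM or more passed 2-fold in either direction with PMA in 427 cells, in the libraries labelled SP2bKD or with EICD, with medians of −0.04, −0.06 and 0.18. At the shares of all loci given above, lists of this size would hold few such genes or none. Of 10 receptors in 427 cells, Epha2 was over 2-fold higher (40.7 and 180.6 FPKM) and Erbb3 over 2-fold lower (20.6 and 10.0 FPKM). In the libraries labelled SP2bKD Fgfr1 was also over 2-fold higher, with a log2 ratio of 1.13. Egfr, the target of Errfi1, was at 13.2 and 21.1 FPKM in 427 cells and at 10.5 and 17.2 FPKM in the libraries labelled SP2bKD, with log2 ratios of 0.68 and 0.72. With EICD 2 of 10 receptors were over 2-fold higher, Fgfr1 and Fgfr3, receptors whose signals Sprouty proteins restrain. Fgfr1 was low, at 1.17 and 2.87 FPKM, and Fgfr3 was at 4.74 and 9.91 FPKM, with log2 ratios of 1.29 and 1.07. The locus with the symbol Fgfr2 was newly assembled and ran from 130162451 to 133124354 on chromosome 7. A locus this long may hold other genes. Its values, 69.6 and 99.3 FPKM with a log2 ratio of 0.51, may therefore not be those of Fgfr2 alone. Egfr lay at 0.05. Of 12 receptor adaptors none passed 2-fold with PMA in 427 cells or with EICD, and Gab1 was over 2-fold lower in the libraries labelled SP2bKD at −1.05.

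Of 15 genes listed as partners of Sprouty and Spred proteins, all with 1 FPKM or more, Phlda1 alone was over 2-fold higher with PMA, with log2 ratios of 1.96 and 1.84. With EICD it was Siah2 alone, a ubiquitin ligase for Sprouty proteins, at 8.06 and 16.5 FPKM with a log2 ratio of 1.04. Cbl, which binds phosphorylated Sprouty2, was at 17.2 and 17.7 FPKM with DMSO and PMA in 427 cells and at 32.3 and 19.7 FPKM in the libraries labelled SP2bKD. The high value was that of the DMSO library labelled SP2bKD. The plot by gene list shows these groups.

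**Figure D4:**
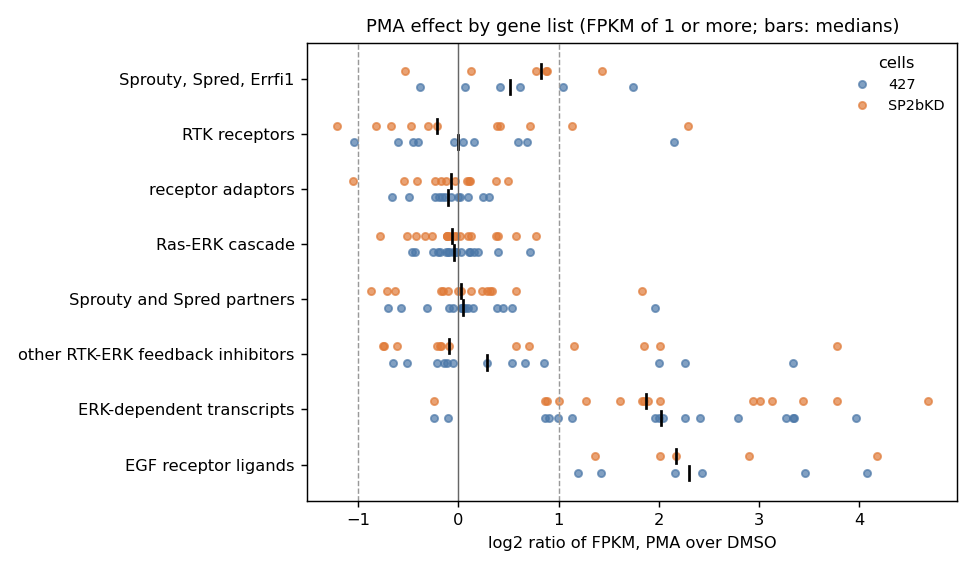
Log2 ratios of FPKM with PMA over DMSO for genes with 1 FPKM or more in each list, 1 point per gene, blue for 427 cells, orange for the libraries labelled SP2bKD, black bars for medians and dashed lines at 2-fold. Medians of EGF receptor ligands (2.30 and 2.17) and ERK-dependent transcripts (2.02 and 1.87) lie to the right of those of the Sprouty, Spred and Errfi1 genes (0.52 and 0.83 over 6), and the medians of the other lists lie between −0.22 and 0.28. Some of the ligands and ERK-dependent transcripts drawn reach 1 FPKM only with PMA.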

How the data were processed

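RNA-seq of 6 libraries of mouse 427 cells, 1 per condition, was analysed. The authors deposited FPKM values per locus. The submitters' processing notes name TopHat2 2.1.1, Cufflinks 2.1.1, Cuffdiff 2.1.1, STAR 2.4.0b and GRCm38, without giving STAR's role. Ratios were log2((b + 0.01)/(a + 0.01)), and for EICD 0.01 was added to the EICD library only, among loci of at least 0.01 FPKM with GFP. Loci with a symbol and at least 1 FPKM in 1 library compared were counted. Depth and fragments per gene were estimated from FPKM steps of 881 single-transcript loci and the longest transcript, which gives upper estimates, and intervals are exact binomial (Clopper-Pearson) at 95%. The interval of a difference of 2 log2 ratios was set from both variances. Scripts were tested on simulated data. Python 3.11.15, NumPy 2.4.6, pandas 2.3.3, SciPy 1.17.1 and matplotlib 3.10.9 were used. The genes and lists were chosen with earlier results of these data known. Named genes were the members, Spry3, Dusp4, Dusp5, Dusp6, Cbl, Egfr and at most 4 per list by absolute ratio in each PMA comparison and with EICD. The 3 nearest profiles per member, Sppl2b and St14 were also named but are not in the count of named genes flagged below. A newly assembled locus among the nearest of Spry1 is not named. Other pseudocounts, minimums, scalings and thresholds were tried.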

Additional observations from a re-analysis of the deposited data

Results flagged for a closer look

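Among 50 named genes with 1 FPKM or more, 3 had PMA log2 ratios of opposite sign in the 2 lines, where 18.5% of 10845 loci did. The named genes were picked in part by the size of their ratios, so the 2 shares cannot be compared. The difference between the lines was not tested. Araf, a Raf kinase, lay at 0.11 in 427 cells and −0.51 in the libraries labelled SP2bKD. Cbl lay at 0.041 and −0.71. Mknk1, a kinase downstream of ERK, lay at −0.57 and 0.030. Cbl and Mknk1 were thus each near 0 in 1 of the lines. None of the 7 Sprouty, Spred and Errfi1 genes was among the 3.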

How the results depend on the processing

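No paired analysis was possible because there is 1 library per condition. With PMA in 427 cells, 1 of the members was past 2-fold, in place of 2, with 1 FPKM added, where 2.87% of loci were. It was also 1 with each library scaled to an FPKM sum of 1000000 (2.07% of loci), and 3 with no minimum FPKM (9.14%). In the libraries labelled SP2bKD it was 2 with no minimum FPKM (8.82% of loci) and 4 at 1.5-fold (7.89%), in place of 1. The member added with no minimum was Spry4 in both lines. With EICD it was 2 at 1.5-fold, in place of 0, where 10.5% of loci passed. For the lines with PMA it was 4 with the scaled sum, in place of 0, where 83.8% of loci passed. That scaling shifts the median of all loci by −0.25 and 0.03 for PMA in 427 and SP2bKD, −0.18 for EICD, and 0.96 and 1.24 for the lines with DMSO and PMA, since the 3 largest loci hold 65.3% to 85% of an FPKM sum. Of 42 member ratios 12 changed sign under it, none under the same upper quartile or with 0.1 or 1 FPKM added, and 1 FPKM added moved 2 beyond counting error, Spry4 with PMA in both lines. No symbol of a member was repeated, so summing rows gave no separate value.

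The background counts of loci past 2-fold were 416, 373 and 382 for PMA in 427, PMA in SP2bKD and EICD, and 1415, 1342 and 1303 with no minimum. With a minimum of 10 FPKM they were 241, 232 and 122. For the lines with DMSO and PMA and the difference of PMA ratios they were 628, 519 and 355, and 3175, 2998 and 3256 with no minimum. With a minimum of 10 FPKM these were 192, 136 and 123, and with 1 FPKM added 354, 275 and 163. With 1 FPKM added, EICD gave 179. At 1.5-fold the lines with DMSO and PMA and the difference of PMA ratios gave 1558, 1308 and 974. The scaled sum gave 141 for PMA in 427 cells, 103 for EICD, 4385 and 6805 for the lines, and 136 for the difference of PMA ratios. It moved the share of higher among all calls from 38.1% to 53.4% for PMA in SP2bKD, from 87.6% to 72% for EICD, from 53% to 99.6% and 44.3% to 99.8% for the lines, and from 63.9% to 41.2% for the difference of ratios.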
